A study of Mus musculus with 4 samples.

Results

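The cells described here are the cycling members of a gate for hematopoietic stem cells, called cycling Procr gate cells below. A cell entered the gate with at least 500 detected genes, at most 10% mitochondrial UMIs (unique molecular identifiers, each counting 1 captured transcript), at least 1 UMI of Procr, at least 1 UMI in 2 or more of the 5 stem genes Fgd5, Mecom, Mllt3, Hlf and Clec1a, and at most 1 UMI of Pf4. It was called cycling when the UMIs of 8 cycle genes (Mki67, Top2a, Ube2c, Birc5, Hist1h1b, Hist1h2ap, Tk1 and Rrm2) summed to 5 or more. Of 44151 barcodes, 2003 met the rule. They were set against 4666 resting Procr gate cells, with a cycle gene sum of 0 or 1, and against 13893 cycling cells without a Procr UMI. All 3 classes were selected on measured UMIs of these genes in the same cells, so every value below is a description and none is a test.

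Single-cell RNA sequencing was done on bone marrow hematopoietic stem and progenitor cells (HSPCs) of C57BL/6 donors, 20 weeks after competitive transplantation. The sorted cells were donor cells, recognised by the CD45.2 form of CD45, and the markers that defined HSPCs are not stated in the sources used here. The labels name 2 Srcap mutant samples, whose donor cells are heterozygous, and 2 WT samples, all at 20 weeks, with 20000 cells of each loaded. What the Srcap allele changes is not stated in the sources used here. The Srcap protein is the motor of a nucleosome remodeller that exchanges histone H2A for its variant H2A.Z. The matrix separates 4 libraries by a barcode suffix, and no label ties a suffix to a sample, so Srcap mutant and WT could not be compared. Values are given for library 1 to library 4, in that order wherever 4 values stand together.

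Most long-term hematopoietic stem cells in adult marrow are out of cycle, and division accompanies their exit towards multipotent progenitors, which expand and lose self-renewal. Procr, the endothelial protein C receptor, marks mouse stem cells, and Fgd5, Mecom, Mllt3, Hlf and Clec1a are transcribed preferentially in them. In S phase a cell copies its DNA and makes replication-dependent histones, and in G2 and M phase it builds the mitotic kinesins, centromere proteins and spindle factors.

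The cycling Procr gate cells numbered 555, 661, 373 and 414 in the 4 libraries. Resting cells of the gate numbered 964, 964, 1170 and 1568, and another 400, 354, 217 and 333 had a cycle gene sum of 2 to 4. The cycling cells were 28.9%, 33.4%, 21.2% and 17.9% of the gate, with exact 95% binomial intervals of 26.9 to 31.0%, 31.3 to 35.5%, 19.3 to 23.2% and 16.3 to 19.5%. The interval bounds cover counting error only. Libraries 1 and 2 were above libraries 3 and 4, and no interval of one pair overlapped an interval of the other. The same split was seen among all cells that met the gene and mitochondrial limits, with 43.5%, 45.5%, 38.2% and 36.5% cycling. Cycling Procr gate cells were 10.3%, 14.5%, 10.1% and 12.6% of all cycling cells, without that split. Genotype and other differences between samples cannot be told apart here, since the suffixes carry no genotype.

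**Figure D1:**
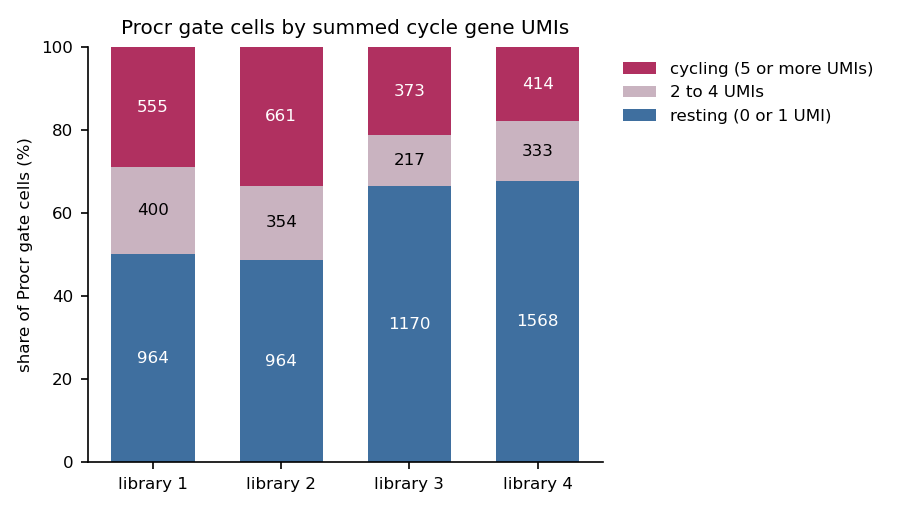
Share of Procr gate cells (%) in each library by the summed UMIs of the 8 cycle genes, with the number of cells written in each block. Cycling cells make up 28.9%, 33.4%, 21.2% and 17.9% of the gate in libraries 1 to 4.

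The gate depended on depth. The cycling Procr gate cells had a median of 14648, 15141, 16380 and 16583 UMIs per cell. Resting cells of the gate had 6870 to 8022, and cycling cells without Procr had 14852, 15315, 16212 and 16544. When every cell was thinned at random to 5000 UMIs before the gate was applied, 405 cycling Procr gate cells remained and the median share over libraries was 9.59% in place of 25.1%. Thinned after the gate, 38.3% to 44.0% of the cycling Procr gate cells still held a Procr UMI, against 75.3% to 80.4% of the resting ones, of which 71, 66, 45 and 55 cells were too shallow to be thinned. Exactly 1 Procr UMI was found in 62.8% to 72.1% of the cycling Procr gate cells and in 49.8% to 59.8% of the resting ones.

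Free RNA and doublets bear on such a gate. A Procr UMI was found in 16.6% to 20.0% of all cycling cells (median depth 14848 to 16562 UMIs), but also in 3.75% to 8.85% of cycling cells with 20 or more UMIs of the neutrophil granule gene Elane (22472 to 26672 UMIs). In cells with Ms4a1 and Cd79a, both B cell genes, the share was 3.79% to 5.81% (9470 to 14296 UMIs). How many members entered on a background Procr UMI was not measured. Scrublet scores in the highest 8% of a library were held by 20.0% to 26.3% of the cycling Procr gate cells, 4.56% to 6.32% of the resting ones and 8.68% to 10.2% of the cycling cells without Procr. Leaving those cells out kept 1522 members. Of 43940 barcode sequences, 209 occurred in more than 1 library, and 24 members carried one of them; without such cells 552 and 232 genes were called against resting cells, in place of the 555 and 238 given below.

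Of the markers that named the class, Procr, Fgd5, Mecom, Mllt3 and Mki67 were all detected. Procr stood at 86.6, 83.3, 84.3 and 82.6 CPM (the usual depth-scaled UMI count, here scaled within each class and library) in the cycling Procr gate cells and at 218, 210, 222 and 223 CPM in the resting ones. Fgd5, a guanine nucleotide exchange factor used to mark stem cells, stood at 5.71, 5.57, 7.49 and 10.9 CPM against 24.7, 27.1, 27.7 and 35.5 CPM. Mllt3, which sustains stem cell transcription, stood at 53.5, 57.6, 55.1 and 69.3 CPM against 206, 214, 223 and 278 CPM. These genes were part of the rule, and a cell of greater depth meets a minimum of 1 UMI at a lower CPM, so neither their presence nor their lower level is a finding. Mki67, the proliferation antigen, stood at 712, 983, 624 and 619 CPM against 4.97, 6.03, 3.51 and 2.43 CPM.

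Slamf1 (CD150) and Vwf, which the rule did not read and which mark the most primitive or platelet-biased stem cells, were not above cycling cells without Procr in every library. Slamf1 stood at 4.82, 7.10, 5.99 and 12.5 CPM in the cycling Procr gate cells, 20.7, 23.5, 28.7 and 44.6 CPM in the resting ones, and 6.76, 8.25, 6.58 and 9.52 CPM in cycling cells without Procr. Vwf, von Willebrand factor, stood at 6.50, 5.57, 10.2 and 22.4 CPM, against 25.9, 27.7, 50.9 and 69.4 CPM in the resting cells and 12.2, 11.7, 14.4 and 28.2 CPM in cycling cells without Procr. In all 4 libraries Vwf was lowest in the cycling Procr gate cells of the 3 classes. Cycling cells without Procr carried no Pf4 limit. In those that met the Pf4 limit and the stem gene rule, Slamf1 stood at 4.78, 6.19, 5.43 and 9.39 CPM, below the cycling Procr gate cells in each library, by 0.01 to 0.38 on the log2 scale. Cd48, a surface protein absent from the most primitive stem cells, went the other way, with 118, 114, 130 and 109 CPM, against 33.2, 32.0, 29.7 and 16.4 CPM in the resting cells and 143, 132, 158 and 122 CPM in cycling cells without Procr. At an equal depth of 5000 UMIs, a Cd48 UMI was found in 35.4% to 40.2% of the cycling Procr gate cells and 5.35% to 11.8% of the resting ones (unthinned, 58.7% to 65.1% and 8.23% to 16.4%). Other stem markers that the rule did not read were mixed. Hoxb5 stood at 5.83, 5.39, 6.29 and 10.9 CPM, against 3.17, 3.76, 2.99 and 5.35 CPM in cycling cells without Procr. Esam (25.2 to 28.9 against 12.9 to 17.0 CPM), Kit (191 to 243 against 129 to 184 CPM) and Ly6a were higher in each library. Ctnnal1 was lower in each, at 7.04 to 10.7 against 8.18 to 12.8 CPM. These markers were all below the resting cells. With Cd48 present and the stem markers mixed, the cells are called by their gate and not stem cells.

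Markers of other cell types varied within the gate. Cdh5 (endothelium) and Cd3e (T cells) were at 0 UMIs in the 2003 cells, and the B cell gene Ms4a1 had 7 UMIs in all. Other markers were present. The B cell gene Cd79a stood at 16.3 to 29.8 CPM in the cycling Procr gate cells, 3.08 to 4.69 CPM in the resting ones and 72.8 to 125 CPM in cycling cells without Procr. Nkg7, a cytotoxic granule gene, stood at 257 to 318 CPM, against 75.6 to 157 CPM in the resting cells and 332 to 379 CPM in cycling cells without Procr. Pecam1, which endothelium and blood cells share, stood at 33.6 to 51.3 CPM, against 29.9 to 53.9 CPM in the resting cells. The 24 B, T, NK, dendritic and macrophage markers summed to 579 to 817 CPM, against 515 to 600 CPM in the resting cells and 848 to 966 CPM in cycling cells without Procr. The 22 listed granulocyte and monocyte genes summed to 1289 to 2019 CPM in the cycling Procr gate cells, 977 to 1118 CPM in the resting ones and 3873 to 6184 CPM in cycling cells without Procr. The 19 lymphoid priming genes summed to 712 to 1779 CPM, against 635 to 1159 CPM in the resting cells and 1569 to 1998 CPM in cycling cells without Procr. Of the 22 megakaryocyte and platelet genes only Gp6 was at 0, and they summed to 738 to 835 CPM, against 1055 to 1330 CPM in the resting cells and 939 to 1128 CPM in cycling cells without Procr. The part of these transcripts in the results was not tested.

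Ratios were taken within each library as log2 of (CPM + 1) over (CPM + 1), on which ratios of weakly detected genes come out too small. A gene was called when it was at least 1.5-fold higher, or lower, in all 4 libraries, among genes that averaged at least 20 CPM over both sides, with the 15 genes of the gate left out. Against resting cells of the gate, 555 of 6081 genes were called higher in the cycling cells, 9.13% of those measured, and 238 were called lower, or 3.91%. Since the rule split the gate by cycle genes, the cell cycle part of this difference was set by the choice of cells.

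The 12 highest genes in the cycling Procr gate cells were Cenpf, Hmmr, Hist1h3c, Nusap1, Pclaf, Kif15, Kif4, Ckap2l, Cep55, Esco2, Cdca3 and Pbk. Cenpf, a kinetochore protein, stood at 382, 482, 362 and 378 CPM against 5.54, 8.04, 5.12 and 4.93 CPM in the resting cells. Hmmr, a spindle-associated protein, stood at 171, 197, 166 and 149 CPM against 2.27, 1.74, 0.904 and 0.759 CPM. Of 47 measured G2 and M phase genes 46 were called higher, with a median log2 ratio of 4.02 against 0.06 over all genes. Of 37 S phase genes 35 were called higher (median 1.95), and of 17 replication-dependent histones 15 (median 2.89). Clspn, the claspin adaptor of the replication checkpoint, stood at 95.8, 124, 104 and 94.0 CPM against 3.13, 6.30, 3.41 and 3.19 CPM.

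The start regions of these genes hold short elements known from cell cycle promoters. The CHR element (TTTGAA) is bound by the DREAM and MuvB complexes that time G2 and M phase transcription, and E2F factors bind sites such as TTTNNCGC. Both were searched on both strands in RefSeq windows of GRCm38.p6 from 250 bases before to 50 after each gene's first base, 1 window a gene. A CHR match was present in 28 of the 40 G2 and M phase genes with a window (70.0%), in 3 of 28 S phase genes (10.7%), in 598 of 4890 measured genes (12.2%) and in 18.1% of all 27025 windows. An E2F match was present in 5 of 40 G2 and M phase genes (12.5%), in 12 of 28 S phase genes (42.9%), in 521 of 4890 measured genes (10.7%) and in 5.27% of all windows. Among the genes called higher, 441 of 555 had a window and 109 of those held a CHR match (24.7%) and 98 an E2F match (22.2%). Among the genes called lower, 182 of 238 had a window, 22 with a CHR match (12.1%) and 5 with an E2F match (2.75%). A match describes the letters and is not evidence of binding. The windows below, shown to let the elements be read in place, are those of 3 of the 12 highest genes with a CHR match (Cenpf, Hmmr and Ckap2l) and of 2 S phase genes with an E2F match (Clspn and Uhrf1), from 150 bases before to 30 after the first base, 5′ to 3′ on the gene's strand, with the match in capitals (TTCAAA and GCGCGAAA are matches on the opposite strand). Cenpf lies on the minus strand at chr1:189688057-189688236, Hmmr on the minus strand at chr11:40733408-40733587 and Ckap2l on the minus strand at chr2:129297183-129297362. Clspn lies on the plus strand at chr4:126556830-126557009 and Uhrf1, which guides maintenance DNA methylation, on the plus strand at chr17:56303187-56303366.
Cenpf: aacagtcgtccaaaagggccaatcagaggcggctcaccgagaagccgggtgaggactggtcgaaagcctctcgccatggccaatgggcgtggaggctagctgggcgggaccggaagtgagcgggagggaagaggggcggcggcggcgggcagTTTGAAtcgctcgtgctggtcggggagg
Hmmr: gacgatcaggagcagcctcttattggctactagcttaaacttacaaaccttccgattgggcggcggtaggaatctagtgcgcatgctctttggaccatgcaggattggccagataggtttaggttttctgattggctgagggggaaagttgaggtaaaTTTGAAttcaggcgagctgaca
Ckap2l: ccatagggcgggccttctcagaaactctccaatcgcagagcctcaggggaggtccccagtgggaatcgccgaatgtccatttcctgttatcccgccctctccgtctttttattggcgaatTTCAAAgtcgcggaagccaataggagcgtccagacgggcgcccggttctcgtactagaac
Clspn: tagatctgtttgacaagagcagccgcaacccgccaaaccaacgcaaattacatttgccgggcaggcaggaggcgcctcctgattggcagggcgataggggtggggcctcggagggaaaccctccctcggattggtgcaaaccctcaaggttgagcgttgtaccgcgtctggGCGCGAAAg
Uhrf1: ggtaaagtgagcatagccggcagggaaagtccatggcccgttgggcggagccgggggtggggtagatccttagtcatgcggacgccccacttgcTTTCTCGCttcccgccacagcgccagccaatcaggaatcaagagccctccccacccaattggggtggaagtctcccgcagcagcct

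Lists for DNA repair and metabolism were called higher in part, where 9.13% of all genes were called higher and 3.91% lower. Of 9 measured homologous recombination and Fanconi anemia genes 7 were called higher (median log2 ratio 1.49), among them Brca1, at 40.8, 49.1, 37.2 and 40.5 CPM against 1.70, 2.68, 1.00 and 1.52 CPM. Of 18 replication checkpoint genes 12 were higher (median 0.90), of 16 mismatch, base and nucleotide excision repair genes 8 (median 0.64) and of 17 nucleotide, serine and one-carbon genes 9 (median 0.75), including Tyms, thymidylate synthase. Of 31 oxidative phosphorylation genes 7 were higher, such as cytochrome c (Cycs), with a median of 0.46. The 16 measured glycolysis genes had 1 called higher (Tpi1) and 4 lower (Ldhb, Aldoa, Hk2 and Slc2a3), with a median of 0.03. These 16 genes summed to 2835 to 3072 CPM in the cycling cells and 2492 to 2619 CPM in the resting ones. The 11 measured p53 target and apoptosis genes had 0 called in either direction, and their median of 0.02 changed sign under several settings.

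Genes of the Srcap pathway were not uniform. Srcap itself stood at 69.2, 85.2, 57.2 and 63.9 CPM in the cycling Procr gate cells, 68.9, 82.2, 57.0 and 59.5 CPM in the resting ones and 57.0, 79.7, 50.9 and 49.7 CPM in cycling cells without Procr. It was highest in library 2 in every class. Within each library it was higher in the cycling Procr gate cells than in cycling cells without Procr, short of the 1.5-fold call, and close to the resting cells. H2afz, which encodes H2A.Z.1, stood at 2330, 2359, 2706 and 2498 CPM against 609, 615, 683 and 642 CPM in the resting cells. H2afv, the second H2A.Z gene, stood at 701, 685, 749 and 681 CPM against 250, 248, 235 and 230 CPM. Of the 15 measured genes of the SRCAP complex and H2A.Z, 4 were called higher (H2afz, H2afv, the H2A.Z chaperone Anp32e and Brd8), with a list median of 0.25, and none lower. Over all genes 9.13% were called higher and 3.91% lower than in resting cells. Against cycling cells without Procr none of the 15 was called, where 0.98% of all genes were called higher and 0.76% lower.

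Many stem cell genes that the rule did not read were lower in the cycling than in the resting Procr gate cells. Of 34 measured stem cell identity genes outside the gate 20 were called lower and 0 higher, with a median log2 ratio of -0.90. The filter averaged both classes, so genes high only in resting cells were measured, and this count and median lean towards lower. All 47 listed genes, unfiltered, summed to 4223 to 4565 CPM in the cycling cells and 7038 to 8428 CPM in the resting ones. Over all genes 3.91% were called lower and 9.13% higher. Sult1a1, a sulfotransferase, headed the 12 lowest and fell to 4.82, 4.85, 7.19 and 16.0 CPM against 43.0, 34.2, 58.9 and 93.1 CPM, a median log2 ratio of -2.73. Mycn, a MYC family factor of immature stem cells, stood at 22.4, 23.5, 25.02 and 51.7 CPM against 84.5, 94.4, 152 and 201 CPM. Gda (guanine deaminase) stood at 7.84, 8.63, 11.1 and 27.6 CPM against 46.3, 46.8, 72.1 and 106 CPM. The other genes among the 12 lowest were Socs2, Nupr1, Tgm2, Pdzk1ip1, Myof, Hacd4, Trim47, Mmrn1 and Cavin2, with median log2 ratios between -2.31 for Socs2 and -1.58 for Cavin2. Ly6a (Sca-1) fell to 88.5, 79.8, 91.2 and 87.8 CPM against 226, 226, 230 and 228 CPM, with almost no spread between libraries in either class. Resting cells had met the same UMI minimums at lower depth, and the part of this in these levels was not tested. With cells thinned to 5000 UMIs before the gate, 104 genes were called lower in place of 238, and 93 were shared.

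Inhibitors of the cell cycle divided by gene. Cdkn1c (p57), a brake on stem cell division, stood at 14.7, 12.04, 14.7 and 13.2 CPM in the cycling Procr gate cells against 42.2, 41.6, 44.7 and 47.1 CPM in the resting ones. Txnip, which limits glucose uptake and proliferation, stood at 243, 250, 208 and 212 CPM against 650, 651, 506 and 554 CPM. Cdkn1b (p27) was not called, at 67.8, 77.5, 60.8 and 58.5 CPM against 63.8, 85.1, 60.4 and 60.1 CPM. Cdkn2c (p18) was called higher, with 53.9, 61.7, 62.2 and 59.9 CPM against 33.8, 33.5, 40.4 and 32.7 CPM. In all, 1 of 17 measured inhibitor and quiescence genes was called higher and 4 lower. Over all genes 9.13% were called higher and 3.91% lower. Of 18 measured genes for G1 cyclins, their kinases and pocket proteins, 7 were called higher and 2 lower (median log2 ratio 0.54). E2f8, Rbl1, Lin9 and Tfdp1 were among the higher ones. The 2 lower ones were the D-type cyclins Ccnd2 and Ccnd1, with Ccnd2 at 181, 202, 209 and 215 CPM against 361, 419, 449 and 463 CPM.

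Some members of inducible and immune gene groups were called lower as well, the rest mostly not called. Of all genes measured, 3.91% were called lower and 9.13% higher. Of 16 type I interferon response genes 6 were called lower and 1 higher (median log2 ratio -0.60). Iigp1, an interferon-inducible GTPase, stood at 38.2, 32.9, 23.1 and 38.7 CPM against 121, 134, 97.9 and 98.4 CPM, whereas Ifi27l2a was called higher, at 44.0, 33.0, 34.6 and 37.4 CPM against 14.2, 13.8, 9.44 and 6.68 CPM. Of 12 measured immediate early and heat shock genes 5 were lower, Junb, Jund, Ier3 and Jun among them (median -0.36). The summed level of the same 12 genes was 5637 to 6144 CPM in the cycling Procr gate cells and 4956 to 5482 CPM in the resting ones. Of 14 measured MHC genes 4 were lower: Cd74, H2-Aa, H2-Eb1 and H2-T23. The megakaryocyte and platelet list had 4 of 11 lower, Vwf and Selp among them.

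On the progenitor side, 6 of 13 multipotent progenitor genes were called higher and none lower, where 9.13% of all genes were called higher. Cd34, not called, a sialomucin gained on leaving the most primitive stem cells, stood at 344, 397, 353 and 302 CPM against 229, 273, 201 and 146 CPM. Flt3, a receptor of lymphoid-primed progenitors that was not called either, stood at 80.8, 91.8, 85.5 and 84.2 CPM against 68.0, 72.9, 46.9 and 34.3 CPM. The granule gene Mpo was at 152, 192, 213 and 305 CPM against 19.5, 17.3, 14.9 and 9.71 CPM, and Elane at 64.4, 178, 252 and 278 CPM against 9.38, 6.17, 8.53 and 6.22 CPM. The granulocyte and monocyte list had 5 of 10 called higher (median 0.69), but its median was -0.11 when cells were thinned to 5000 UMIs before the gate. Ctsg and Mpo were called members of both this list and the multipotent progenitor list, so these counts are not separate. Elane UMIs were concentrated: 10 or more were found in 0.721% to 2.66% of the cycling Procr gate cells and 6.78% to 11.0% of cycling cells without Procr. At 5000 UMIs per cell, an Elane UMI was found in 3.49% to 5.31% of the cycling Procr gate cells and 2.90% to 4.82% of the resting ones. For Mpo these shares were 17.9% to 23.3% and 4.30% to 7.39%.

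**Figure D2:**
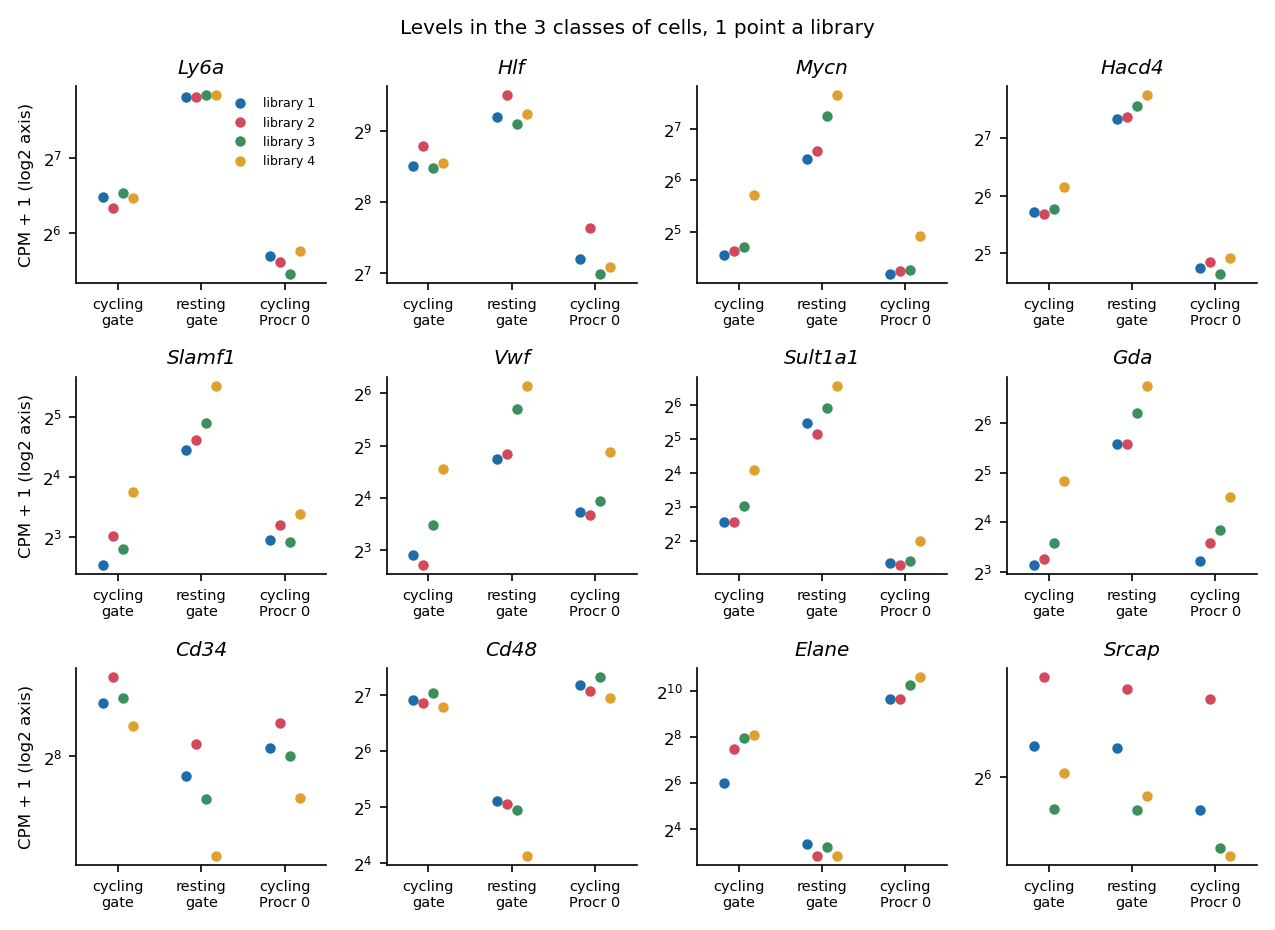
Levels of 12 genes (CPM + 1, log2 axis) in cycling Procr gate cells, resting Procr gate cells and cycling cells without a Procr UMI, 1 point for each library. Ly6a, Hlf and Hacd4 sit between the other classes, and Slamf1, Vwf and Gda sit near the cycling cells without Procr. Elane ranges from 64.4 to 278 CPM in the cycling gate cells against 6.17 to 9.38 CPM in the resting ones. Only 0.721% to 2.66% of the cycling gate cells hold 10 or more Elane UMIs.

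Along the cycle gene sum, levels of several stem and progenitor genes within the gate already differed between a sum of 0 and a sum of 2 to 4, below the threshold of 5. In library 1 the level of Procr was 224 CPM at a sum of 0, 211 at 1, 168 at 2 to 4, 114 at 5 to 9, 97.6 at 10 to 19 and 80.3 CPM at 20 or more. Sult1a1 in that library went through 45.3, 40.5, 26.5, 9.81, 3.45 and 4.10 CPM over the same bins, and Cd48 through 27.2, 39.9, 69.5, 129, 121 and 116 CPM. The 47 stem identity genes together went through 7265, 6788, 6046, 5087, 4238 and 4067 CPM in library 1 and 8547, 8222, 7314, 5912, 4691 and 4324 CPM in library 4. Mcm6, a subunit of the replicative helicase, peaked at 10 to 19 UMIs in every library, with 301, 298, 265 and 270 CPM. Apart from Procr, which the rule read, these trends were also seen in cells without a Procr UMI. There, in library 1, Sult1a1 went through 16.7, 9.59, 6.52, 3.00, 0.473 and 1.41 CPM. Cd48 went through 98.1, 108, 121, 141, 157 and 141 CPM. The 47 stem identity genes together stood at 4914 CPM at a sum of 0 and 2887 CPM at 20 or more. Mcm6 again peaked at 10 to 19 UMIs in every library. Within the gate, median depth was greater in each higher bin of library 1, from 7073 UMIs at 1 to 15505 UMIs at 20 or more. The part of depth in these trends was not tested. Just inside the threshold, gate cells with a sum of exactly 5 (38, 31, 20 and 19 cells) had 111, 96.5, 147 and 153 CPM of Procr and 93.0, 83.1, 143 and 110 CPM of Mllt3. Just outside, cells with a sum of exactly 4 (64, 49, 28 and 37 cells) had 140, 141, 151 and 159 CPM of Procr and 89.0, 120, 114 and 162 CPM of Mllt3.

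**Figure D3:**
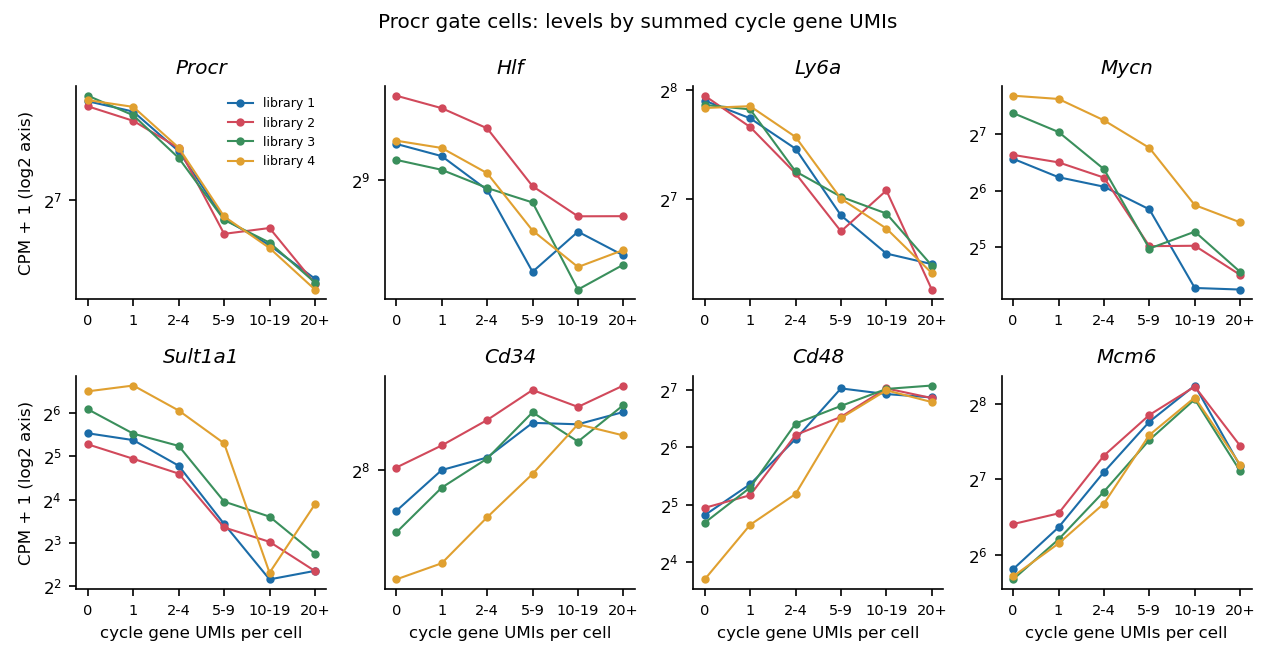
Levels of 8 genes (CPM + 1, log2 axis) in Procr gate cells binned by the summed UMIs of the 8 cycle genes, 1 line for each library. Procr, Hlf, Ly6a, Mycn and Sult1a1 are lower at high sums, Cd34 and Cd48 higher, and Mcm6 peaks at 10 to 19 UMIs.

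Library 4 stood apart for a group of stem-restricted genes in all 3 classes. In its cycling Procr gate cells Mycn (51.7 CPM), Sult1a1 (16.0), Gda (27.6), Slamf1 (12.5) and Vwf (22.4) were higher than in the other libraries, where the highest values were 25.02, 7.19, 11.1, 7.10 and 10.2 CPM. The same library was highest for these 5 genes in the resting cells, for example with 201 CPM of Mycn and 106 CPM of Gda. It was also highest in the cycling cells without Procr, with 29.1 CPM of Mycn and 21.6 CPM of Gda. Cd34 ran the other way, lowest in library 4 in each class. Procr, at 82.6 to 86.6 CPM in the cycling Procr gate cells, and Ly6a, at 79.8 to 91.2 CPM, were not highest in library 4.

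Against cycling cells without Procr, 58 of 5919 genes were called higher in the cycling Procr gate cells, 0.98% of those measured, and 45 lower, 0.76%. The 12 highest were Stxbp4, Ltb, Krt18, Hacd4, Ifitm1, Nceh1, Pglyrp2, Ly6a, Adgrl4, Gimap6, Gcnt2 and Ptms. Hacd4, a fatty acid elongation enzyme, stood at 51.8, 50.4, 53.2 and 69.9 CPM in the cycling Procr gate cells and at 25.8, 27.7, 23.9 and 29.1 CPM in cycling cells without Procr. Ifitm1, an interferon-inducible membrane protein high in stem cells, stood at 521, 423, 502 and 543 CPM against 278, 240, 237 and 234 CPM. Ltb (lymphotoxin beta) stood at 82.6, 67.0, 65.5 and 76.6 CPM against 36.0, 34.6, 23.9 and 20.5 CPM. Of 25 measured stem identity genes 6 were called higher and 0 lower (median log2 ratio 0.51 against 0.03 over all genes). Nkx2-3, a homeobox factor, stood at 34.6, 33.5, 31.6 and 41.2 CPM against 12.4, 13.9, 11.9 and 15.3 CPM. Ly6a stood at 88.5, 79.8, 91.2 and 87.8 CPM against 50.6, 47.9, 42.6 and 52.9 CPM. In the interferon list 3 genes, Iigp1, Ddx58 and Gbp2, were also called higher.

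Genes of committed lineages led the genes called lower. The 12 lowest were S100a9, Elane, Ms4a3, S100a8, Vpreb3, Igll1, Cd79a, Vpreb1, Ly6c2, Ctsg, Ly6d and Mzb1, of which the S100 genes, Elane, Ms4a3, Ly6c2 and Ctsg are myeloid and Vpreb3, Vpreb1, Igll1 and Cd79a belong to B cell precursors. Elane stood at 64.4, 178, 252 and 278 CPM in the cycling Procr gate cells and 803, 816, 1233 and 1581 CPM in cycling cells without Procr. Over all genes 0.76% were called lower, and the filter, an average over both classes, also let in genes high only in cells without Procr. Of 13 granulocyte and monocyte genes 10 were called lower (median log2 ratio -1.85) and of 10 lymphoid priming genes 4 (median -0.54). Against cells without Procr that held at most 1 UMI over 14 lineage genes, a comparison that removes such transcripts by construction, these medians were 0.32 and 0.69. The Pf4 limit of the gate did not apply to the full set of cycling cells without Procr. Against that full set the megakaryocyte genes Itga2b and Rap1b were called lower.

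Few genes of any kind were called between the cycling classes, 0.98% higher and 0.76% lower, and the counts of called cycle genes were near that. None of 50 G2 and M phase genes, 43 S phase genes or 23 replication-dependent histones was called in either direction, with list medians of 0.17, -0.18 and -0.19. At 5000 UMIs per cell, the G2 and M phase list led in 33.0%, 33.3%, 32.4% and 33.8% of the cycling Procr gate cells and in 26.2%, 25.5%, 27.1% and 27.7% of cycling cells without Procr, where a list leads if it exceeds its mean over both classes by the largest factor of the 3 lists. The S phase list led in 36.4%, 35.7%, 35.1% and 37.7% against 39.4%, 40.1%, 41.5% and 38.9%, and the histone list in 30.6%, 31.0%, 32.4% and 28.5% against 34.3%, 34.4%, 31.4% and 33.4%. The G2 and M share was higher in the cycling Procr gate cells in all 4 libraries, with no overlap between the classes, and the S phase share was lower in all 4. The histone share was lower in 3 of 4. Read with a cycle gene sum of 5 to 19 on both sides, the median of the G2 and M list was -0.01 and that of the histones 0.21. Hlf is a stem cell transcription factor that the rule read. In cycling Procr gate cells it stood at 297, 388, 276 and 300 CPM where the S phase list led. Where the G2 and M list led it stood at 421, 463, 368 and 437 CPM, and for the histone list at 378, 475, 444 and 398 CPM. Cycling cells without Procr differed in the same direction. Their Hlf levels were 127, 165, 107 and 114 CPM for the S phase list. They were 155, 214, 127 and 141 CPM for the G2 and M list and 160, 222, 149 and 155 CPM for the histones.

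**Figure D4:**
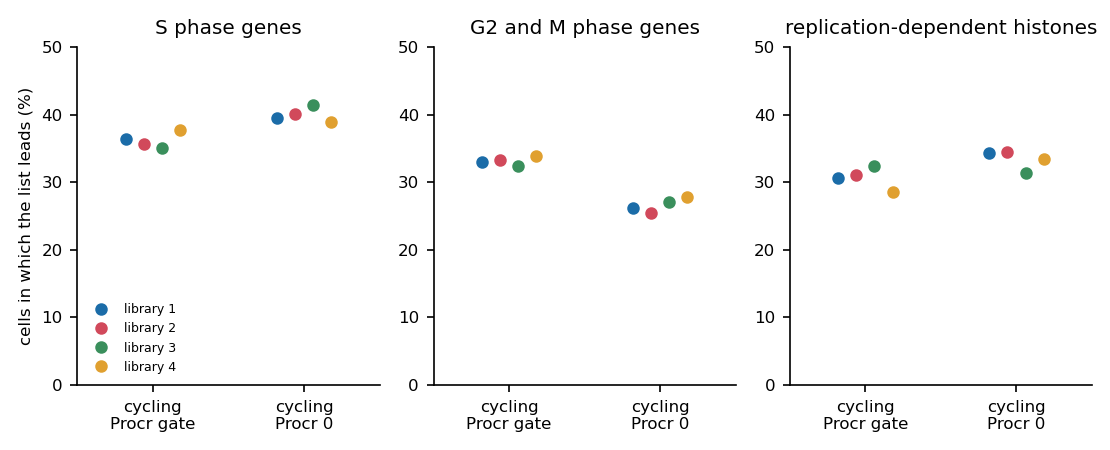
Share of cells (%) in which the S phase, G2 and M phase or histone list leads, after thinning to 5000 UMIs, in cycling Procr gate cells and cycling cells without Procr, 1 point for each library. The G2 and M share is 32.4% to 33.8% in the gate cells and 25.5% to 27.7% in the cells without Procr.

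A group of genes lay between the other classes. Of the 238 genes lower than in resting cells, 134 were measured in both comparisons, and 29 of these (21.6%) were among the 58 genes higher than in cycling cells without Procr, out of 5683 genes measured in both. Another 11 genes lay between the classes the other way, higher than in resting cells and among the 22 measured in both that were lower than in cycling cells without Procr. Only 2 genes, Ptms (a chromatin-binding acidic protein) and the gene model 1500009L16Rik, were higher than in both other classes, and 3, Cavin2, Mt1 and Slc14a1, were lower than in both. Ptms stood at 143, 154, 126 and 144 CPM, against 77.7, 80.4, 68.7 and 67.2 CPM in the resting cells and 87.7, 91.8, 69.4 and 79.0 CPM in cycling cells without Procr. Mt1, Slc14a1 and 1500009L16Rik were singled out after their values were seen.

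**Figure D5:**
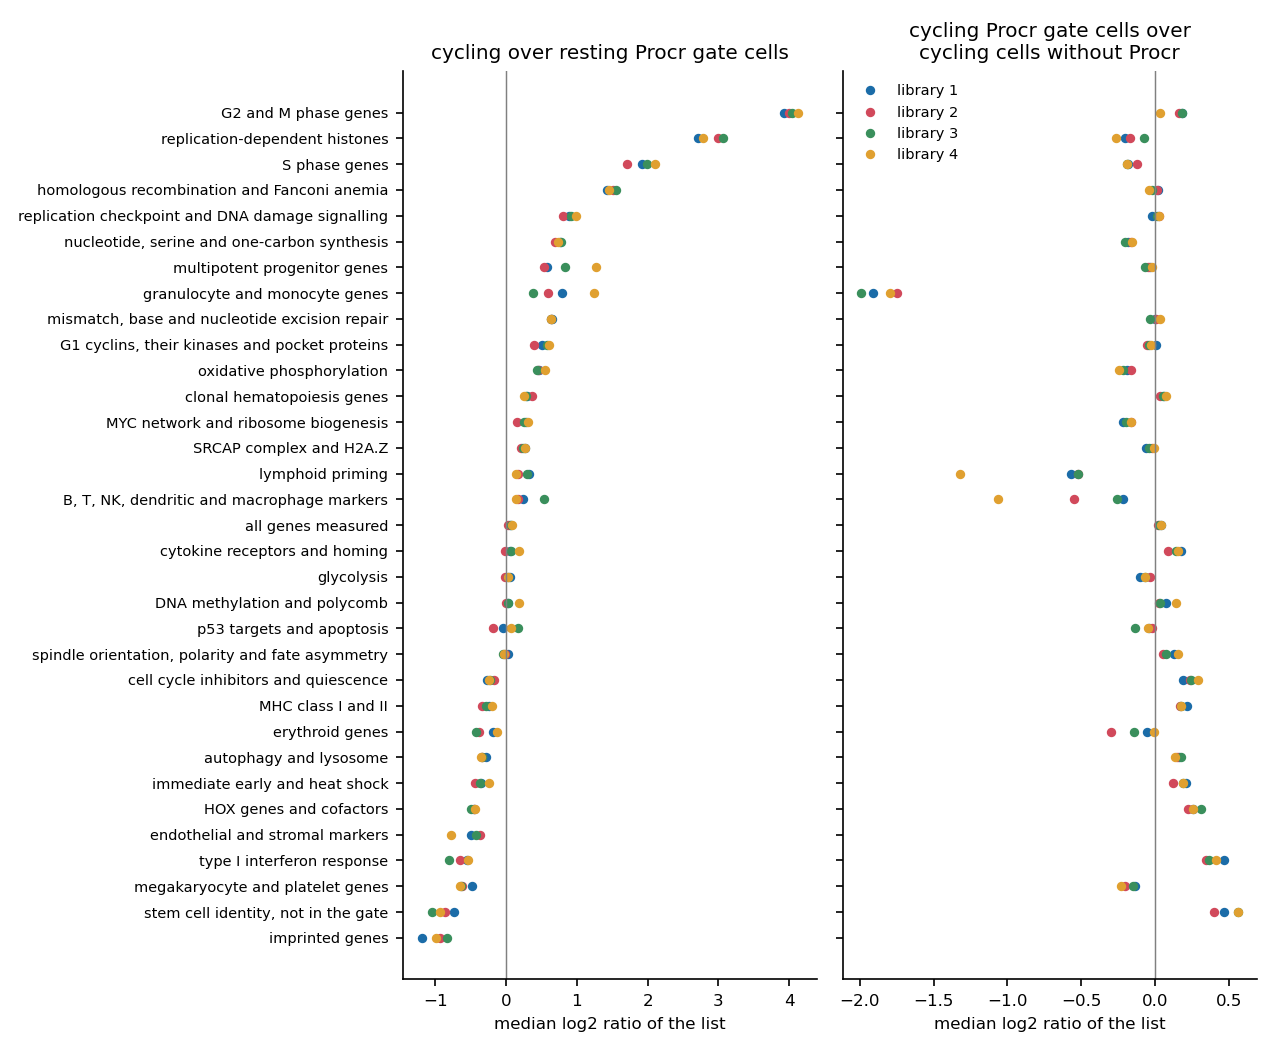
Median log2 ratio of each gene list in each library, for cycling over resting Procr gate cells and for cycling Procr gate cells over cycling cells without Procr. The G2 and M list lies at 3.92 to 4.13 in the first comparison and at 0.04 to 0.18 in the second, with library 4 lowest there. The stem cell identity list has medians of -0.90 over 34 measured genes and 0.51 over 25, so the gene sets differ.

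A narrower comparison used cycling cells without Procr that met the stem gene and Pf4 conditions of the gate. Of cycling cells with at least 2 of the 5 stem genes and at most 1 Pf4 UMI, 26.3%, 29.4%, 28.3% and 33.3% held a Procr UMI, and the rest, 1552, 1585, 946 and 828 cells, did not. Against those cells without Procr, 0 genes were called higher and 0 lower out of 5973, a comparison chosen after the data were seen. It changed both conditions at once, and stem gene levels were not equal: Hlf was 0.42 to 0.58, Fgd5 0.37 to 0.68 and Clec1a 0.56 to 0.78 higher on the log2 scale in the cycling Procr gate cells. By the library whose ratio was closest to 0, Nkx2-3 had the largest positive log2 ratio (0.54 to 0.77) and the myeloid gene Ms4a3 the largest negative one (-0.73 to -0.47). At a lower fold of 1.1 in all 4 libraries, 180 genes were higher and 85 lower, against 1065 and 625 in the comparison with all cycling cells without Procr. Ly6a stood at 88.5, 79.8, 91.2 and 87.8 CPM against 64.7, 62.4, 59.7 and 74.3 CPM, and Cd48 at 118, 114, 130 and 109 CPM against 147, 138, 161 and 127 CPM, so that Ly6a differed in the same direction as in the full comparison but by less, and Cd48 in the same direction. Cycling cells with Procr but exactly 1 stem gene, just outside the rule, had 266, 340, 453 and 630 CPM of Mpo and 167, 165, 204 and 187 CPM of Cd48.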

How the data were processed

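Libraries were made with 10x Genomics 3' v3.1 chemistry, per the labels. The authors deposited 1 aggregated matrix of UMI counts (32285 genes by 44151 barcodes), on mm10, per the submitters' processing notes. Per the file headers, Cell Ranger 6.1.2 wrote the matrix; whether aggregation evened out depth is not stated in the sources used here. No count column was without a library (0 left out).

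The members and gene lists were chosen with earlier results of these data known. Cells failing the gene or mitochondrial limit (3029) were left out. UMIs were summed per library and class and scaled to CPM. Since no library has a known genotype, no mean, SD or p is given; a call is a rule of size. Sums of UMIs over the cycling Procr gate cells were 6674935 to 11129466 a library. Binomial intervals are exact (Clopper-Pearson, 95%). Cells were thinned with a fixed seed of 1. Scrublet was run through Scanpy 1.11.5 at an expected rate of 8%; it called 0, 0, 1 and 0 doublets, so its automatic threshold had not worked and scores were used by rank. The call rule was tested on simulated counts. Other tools were Python 3.11.15, NumPy 2.4.6, SciPy 1.17.1 and pandas 2.3.3.

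Named genes were, per comparison, the 12 highest and 12 lowest by the library whose ratio was closest to 0, at 50 CPM or more, without gate, ribosomal, mitochondrial and unnamed genes, plus up to 4 called members a list and direction, the stem identity and inhibitor lists, the 15 gate genes and Srcap. Alternatives changed the gate, cell filters, depth, gene filter, pseudocount, centring, fold, comparison cells and libraries. The planned Srcap mutant against WT test was not run. Some genes are not reported here.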

Additional observations from a re-analysis of the deposited data

How the results depend on the processing

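Thinning every cell to 5000 UMIs before the gate moved the median cycling share to 9.59% and left 104 genes lower than in resting cells. With a gene filter of 5 CPM, 621 genes were lower than in resting cells, and 145 were higher and 100 lower than in cycling cells without Procr. With no gene filter the counts against resting cells were 954 higher and 944 lower, and against cycling cells without Procr 217 and 199. At 2-fold they were 276 and 69 against resting cells, and 1 and 28 against cycling cells without Procr. Comparison cells with at most 1 lineage UMI gave 32 higher and 127 lower, and with Prtn3 not counted 6 and 11. The granulocyte and monocyte median reversed in both, to 0.32 and 0.28, since those cells were picked for lacking such transcripts. A cycle gene sum of 5 to 19 on both sides gave 31 higher, and comparison cells with at least 2 stem genes gave 0 and 0. Those last cells and the Prtn3 setting were chosen after seeing the data. For the counts without a construction that shows it, the cause was not tested. Leaving out each library in turn gave median shares of 21.2% to 28.9%, 561 to 601 higher and 243 to 287 lower than in resting cells, and 59 to 79 higher and 44 to 53 lower than in cycling cells without Procr. The other settings kept each count within 1.5 times, but a similar count can hold other genes. Thinned before the gate, 59 genes were higher and 48 lower than in cycling cells without Procr. Of the 58 and 45 in the main setting, 26 and 30 were among them. With at most 1 lineage UMI in the comparison cells, 5 of the 58 and 4 of the 45 were shared. No paired analysis was possible because barcode suffixes carry no replicate number or genotype; this concerns Srcap mutant against WT, while the classes were compared within each library. At 5000 UMIs, 45 to 71 resting Procr gate cells a library were too shallow to be thinned.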

Other observations

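Among gene groups not described above, 6 of 27 measured DNA methylation and polycomb genes were called higher in cycling than in resting Procr gate cells, Uhrf1, Ezh2, Dnmt1 and Suz12 among them, and Kdm6b was called lower. Of 16 autophagy and lysosome genes 3 were called lower (Ctsl, Gabarapl1 and Map1lc3a), with a median log2 ratio of -0.35. Of 28 clonal hematopoiesis genes 6 were called higher and 0 lower. Over all 6081 genes, 9.13% were called higher and 3.91% lower.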
